A study of Mus musculus with 4 samples.

Results

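The 9 genes of the switch between epithelial and mesenchymal adhesion described here were read from the expression tables of mouse embryonic stem cells (ESCs) that lack or carry Naa10. They were chosen by name, with earlier results of these data known: Cdh1, Epcam, Cdh2, Snai1, Snai2, Twist1, Twist2, Zeb1 and Zeb2. Each was taken from the row whose symbol field, divided at commas, held it. All 9 were found, in 1 row each, among the 14099 named rows. Zeb2 shared its row with Mir5129, a microRNA gene inside it on the same strand. Naa10 encodes the catalytic subunit of NatA, which acetylates the N-termini of nascent proteins. Polyadenylated RNA was sequenced in 2 libraries of Naa10-KO ESCs and 2 libraries of WT ESCs. The ESCs came from the inner cell mass of blastocysts of Naa10-/X C57BL/6 females crossed with WT JF1 males, and WT lines were littermates of the knockouts. All 4 libraries thus share the C57BL6/JF1 F1 hybrid background, with N2B27 medium, a Mek inhibitor, a Gsk3 inhibitor and LIF, the cytokine that sustains self-renewal. All lines also grew on irradiated mouse embryonic fibroblast (MEF) feeders for 5 passages and then without feeders for 5 passages. The sex of the lines, the deleted part of Naa10 and whether replicates were separate lines or cultures were not stated, so p-values measure only the spread between these libraries.

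Epithelial cells hold together through E-cadherin, the product of Cdh1, which binds E-cadherin on the neighbouring cell and is anchored to actin through catenins. In the epithelial-mesenchymal transition, zinc finger repressors of the Snail (Snai1, Snai2) and Zeb (Zeb1, Zeb2) families bind E-box sequences in epithelial genes, Twist proteins act with them, and N-cadherin, the product of Cdh2, takes the place of E-cadherin. Naive mouse ESCs are epithelial in this sense: they form compact colonies held by E-cadherin and carry the adhesion molecule EpCAM on their surface. Fibroblasts are mesenchymal, and many express Cdh2 and Twist genes.

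Promoter windows of 5 of the 9 genes, taken from RefSeq (build GRCm38.p6), were used, each from 250 bases before to 50 bases after the start of transcription. They were searched for CAGGTG, the E-box read by Snail and Zeb proteins, which reads CACCTG on the other strand, and for the general E-box CANNTG, which includes it. Shown here are Epcam and Snai1, whose windows held CAGGTG on either strand (in capitals), and Twist1 and Twist2, the pair with the highest levels of the 6 factors in Naa10-KO replicate 1, whose windows held no CANNTG. Epcam lies at chr17:87635729-87636028, Snai1 at chr2:167537945-167538244, Twist1 at chr12:33957421-33957720 and Twist2 at chr1:91801211-91801510, all on the plus strand.
Epcam: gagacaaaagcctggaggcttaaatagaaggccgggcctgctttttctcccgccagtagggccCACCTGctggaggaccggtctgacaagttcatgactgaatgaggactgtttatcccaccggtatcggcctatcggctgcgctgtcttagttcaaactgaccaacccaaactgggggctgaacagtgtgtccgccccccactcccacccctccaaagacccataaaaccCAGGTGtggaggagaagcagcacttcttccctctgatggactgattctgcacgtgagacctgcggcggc
Snai1: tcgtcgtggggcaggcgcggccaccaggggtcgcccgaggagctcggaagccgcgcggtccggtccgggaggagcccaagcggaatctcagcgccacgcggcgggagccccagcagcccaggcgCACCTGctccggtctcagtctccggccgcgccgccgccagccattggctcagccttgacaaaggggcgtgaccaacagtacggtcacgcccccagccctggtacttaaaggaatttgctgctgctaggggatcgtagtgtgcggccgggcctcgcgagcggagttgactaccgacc
Twist1: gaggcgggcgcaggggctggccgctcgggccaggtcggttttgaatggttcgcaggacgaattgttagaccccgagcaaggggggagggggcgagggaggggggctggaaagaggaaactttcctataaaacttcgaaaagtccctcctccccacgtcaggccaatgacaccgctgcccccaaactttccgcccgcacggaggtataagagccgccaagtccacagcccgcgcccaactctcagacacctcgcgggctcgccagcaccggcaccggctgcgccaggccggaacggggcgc
Twist2: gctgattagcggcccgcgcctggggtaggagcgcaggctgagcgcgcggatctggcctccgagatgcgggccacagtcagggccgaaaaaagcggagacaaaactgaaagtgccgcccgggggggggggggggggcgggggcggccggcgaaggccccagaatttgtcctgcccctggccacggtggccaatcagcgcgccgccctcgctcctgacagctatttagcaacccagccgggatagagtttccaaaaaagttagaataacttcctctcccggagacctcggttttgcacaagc

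The Epcam window held 2 copies of CAGGTG, starting at positions -187 and -19 from the transcription start, and the Snai1 window held 1, starting at position -126. At least 1 copy stood in 20.2% and at least 2 in 2.88% of all 32851 mouse promoter windows of this length. The general E-box occurred 3 times in the Epcam window. It stood at least 1 time in 72.3% and at least 3 times in 17.6% of all windows. The 4 windows of Zeb2, which has several starts, held no copy of either motif. These matches describe letters in a window and do not show binding.

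The libraries labelled Naa10-KO had 28.9 and 34.4 RPKM (read number divided by transcript length and by library size) in the row that joins Naa10 with its neighbour Renbp, and the WT libraries had 105 and 106 RPKM. RPKM values hide the depth; from the steps of low values, Naa10-KO replicate 1 was 1.46 times, Naa10-KO replicate 2 either 1.68 or 3.36 times and WT replicate 2 was 1.02 times as deep as WT replicate 1. The WT libraries lay close together, with a median absolute difference of 0.05 on log2(RPKM + 1), while the Naa10-KO libraries differed by 0.25. Naa10-KO replicate 1 stood apart for fibroblast genes. The 21 rows of a list of fibroblast markers (Twist2 left out) summed to 367 RPKM in it and 145 RPKM in Naa10-KO replicate 2, against 191 and 202 RPKM in the WT libraries, and none of the 21 was at 0 in any library. The pluripotency factor genes Pou5f1, Nanog and Sox2, which define ESCs, were at 155 RPKM (Sox2 in Naa10-KO replicate 1) or more in every library. Nanog was 0.683 and 1.22 times and Sox2 0.714 and 1.19 times the WT mean in Naa10-KO replicates 1 and 2. Pou5f1 was 1.14 and 1.20 times the WT mean. Each Naa10-KO library is therefore compared with both WT libraries on its own, beside the test of the groups. In bulk RNA, more cells of a type and more RNA per cell cannot be told apart.

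**Figure D1:**
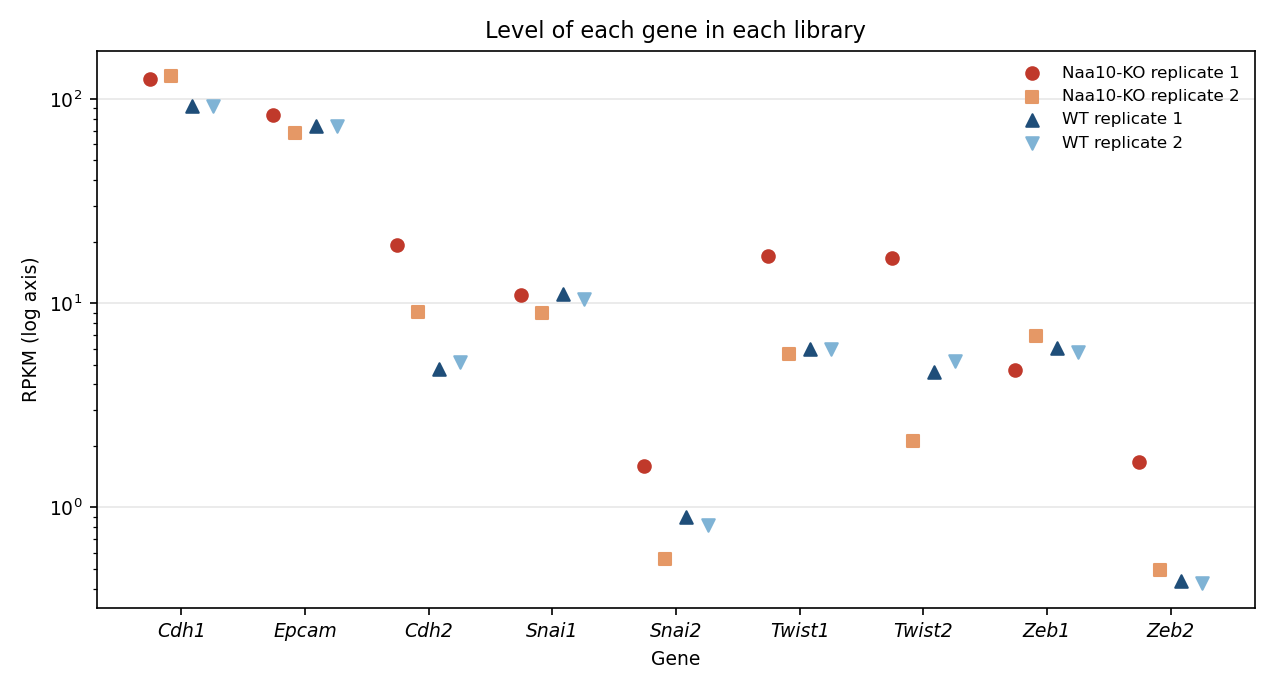
Level of the 9 genes in RPKM (log axis) in the 2 Naa10-KO libraries and the 2 WT libraries, 1 point per library. Cdh1 and Cdh2 were higher in both Naa10-KO libraries than in both WT libraries, while Twist1, Twist2, Snai2 and Zeb2 were highest in Naa10-KO replicate 1.

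The epithelial adhesion genes were abundant in all 4 libraries, and Cdh1 was higher in both Naa10-KO libraries. Cdh1 had 125 and 129 RPKM in the Naa10-KO libraries, against 91.9 and 92.6 RPKM in the WT libraries. Both Naa10-KO libraries were above both WT libraries, and the 2 Naa10-KO values were close to each other. The mean was 127 ± 2.75 RPKM in Naa10-KO and 92.2 ± 0.468 RPKM in WT (SD, n = 2 each), or 1.38-fold. On log2(RPKM + 1), the scale of all tests, the difference was 0.46 (SE 0.06, limma adjusted p = 0.0964) and so did not pass the threshold of 0.05. Cdh1 was among the more abundant transcripts, as 95.0% and 95.1% of all rows lay below it in the Naa10-KO libraries and 93.2% in each WT library. Epcam, the surface adhesion molecule, had 83.3 and 67.7 RPKM in Naa10-KO, against 73.7 and 73.6 RPKM in WT. The Naa10-KO values lay on opposite sides of the WT values, 1.13 and 0.920 times the WT mean, and the log2 difference was 0.03 (SE 0.12, limma adjusted p = 0.906).

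Cdh2, the mesenchymal cadherin, differed most from WT among the tested genes of the set. It had 19.3 RPKM in Naa10-KO replicate 1 and 9.10 RPKM in replicate 2, against 4.78 and 5.18 RPKM in WT. Both Naa10-KO libraries were above both WT libraries, by 3.87 and 1.83 times the WT mean, and replicate 1 was 2.12 times replicate 2. The log2 difference was 1.26 (SE 0.37, limma adjusted p = 0.179), which did not pass. The fibroblast markers summed to more than in either WT library in Naa10-KO replicate 1 and to less in replicate 2. The part of fibroblast RNA in the Cdh2 value of either Naa10-KO library was not tested. Among all rows, Cdh2 had 71.8% and 56.2% of rows below it in the Naa10-KO libraries, and 41.0% and 43.1% in WT.

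The balance of the cadherins, taken as the ratio of their RPKM, of Cdh1 to Cdh2, stood at 6.51 and 14.2 in the Naa10-KO libraries, against 19.2 and 17.9 in WT. Both Naa10-KO ratios lay below both WT ratios. With 2 libraries per group, an exact two-sided permutation test of such a ratio cannot give a p below 0.333, so none is given. The ratio was lower with Cdh1 itself higher in both Naa10-KO libraries, and Cdh1 stayed the more abundant cadherin in all 4 libraries.

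The Snail genes did not lie on 1 side of WT in both Naa10-KO libraries. Snai1 had 10.97 and 8.91 RPKM in Naa10-KO, against 11.1 and 10.5 RPKM in WT. Replicate 1 lay within the WT values and replicate 2 below them, at 0.823 times the WT mean (log2 difference over both -0.12, SE 0.14, limma adjusted p = 0.629). Snai2 had 1.60 and 0.562 RPKM in Naa10-KO, against 0.901 and 0.825 RPKM in WT. It lay above WT in replicate 1 and below WT in replicate 2, and it was not tested because only 1 library reached 1 RPKM. Snai1 thus exceeded Snai2 in every library, by 6.85 and 15.9 times in Naa10-KO and by 12.4 and 12.8 times in WT.

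The Twist genes, basic helix-loop-helix factors of mesoderm and mesenchyme, were high in Naa10-KO replicate 1 and not in replicate 2. Twist1 had 16.9 and 5.66 RPKM in Naa10-KO, against 5.96 RPKM in each WT library. Replicate 1 was 2.84 times the WT mean, and replicate 2 was 0.949 times it. Twist2 had 16.7 and 2.11 RPKM in Naa10-KO, against 4.59 and 5.24 RPKM in WT. Replicate 1 was thus 3.40 times and replicate 2 only 0.430 times the WT mean, a gap of 7.91 times between libraries of the same genotype. Neither passed (Twist1 log2 difference 0.65, SE 0.52, limma adjusted p = 0.493; Twist2 0.33, SE 0.90, adjusted p = 0.841). The Twist2 pattern, above WT in replicate 1 and below WT in replicate 2, was also that of the summed fibroblast markers. Among those, the collagen gene Col1a2 (picked out with its values known) had 15.9 and 2.18 RPKM in Naa10-KO, against 6.58 and 7.60 RPKM in WT. The part of fibroblast RNA in the Twist values was not tested.

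The Zeb genes differed from each other. Zeb1 had 4.72 and 6.95 RPKM in Naa10-KO, against 6.06 and 5.75 RPKM in WT. Replicate 1 was below and replicate 2 above both WT libraries, at 0.799 and 1.18 times the WT mean (log2 difference -0.03, SE 0.20, limma adjusted p = 0.927). The Zeb2 row had 1.66 and 0.496 RPKM in Naa10-KO, against 0.439 and 0.429 RPKM in WT. It was 3.83 times the WT mean in replicate 1 and 1.14 times in replicate 2, at levels so low that only 1 library reached 1 RPKM and no test was made. Zeb1 exceeded Zeb2 by 2.84 and 14.0 times in the Naa10-KO libraries, against 13.8 and 13.4 in WT. In replicate 1 alone it lay apart, where Zeb1 was at its lowest and Zeb2 at its highest.

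**Figure D2:**
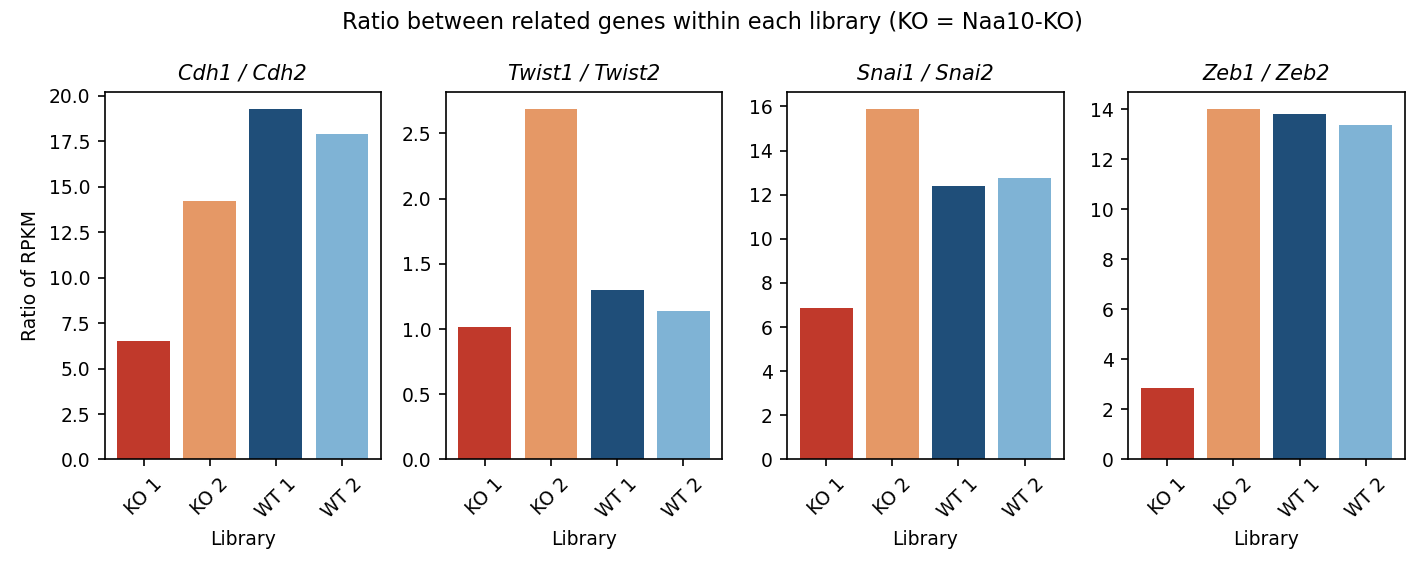
Ratio of RPKM between related genes (Cdh1 to Cdh2, Twist1 to Twist2, Snai1 to Snai2, Zeb1 to Zeb2) in the 2 Naa10-KO libraries (KO) and the 2 WT libraries, 1 bar per library, each axis from 0. Cdh1 to Cdh2 was 6.51 and 14.2 in Naa10-KO, below 19.2 and 17.9 in WT, while Zeb1 to Zeb2 was 2.84 in Naa10-KO replicate 1 and between 13.4 and 14.0 in the other libraries.

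The 6 transition factors together summed to 52.6 RPKM in Naa10-KO replicate 1 and 24.7 RPKM in replicate 2, against 29.1 and 28.7 RPKM in WT. The replicates thus lay on opposite sides of WT. Of the 7 tested genes of the set, 0 passed the limma threshold, where 0.764% of all 11912 tested rows did. At an unadjusted p under 0.05 there were 2, Cdh1 and Cdh2, where 22.1% of all rows were. Both Naa10-KO libraries were above both WT libraries for 2 of the 7 (24.4% of all tested rows) and below both for 0 of the 7 (34.9%). The first share is near that of all tested rows. The untested Zeb2 was also above in both.

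Taken library by library, more of the set stood apart in Naa10-KO replicate 1. A row counted as apart where it differed from both WT libraries by more than 1.5-fold on log2(RPKM + 1). In replicate 1, 3 of the 7 tested genes were above WT by that much, namely Cdh2, Twist1 and Twist2, where 7.51% of all tested rows were, and 0 of the 7 were below (10.4%). The untested Zeb2 was above as well. In replicate 2, 1 of the 7 was above, Cdh2 (3.52% of all tested rows), and 1 was below, Twist2 (5.11%). Twist2 was the one gene of the set past 1.5-fold in opposite directions in the 2 Naa10-KO libraries, which 0.235% of all tested rows were. These are counts of single libraries and have no test, and the genes were chosen with earlier results of these data known. Over the 7 tested genes the median log2 difference from WT was 0.44 in replicate 1 and -0.06 in replicate 2, beside -0.08 and -0.02 over all tested rows.

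**Figure D3:**
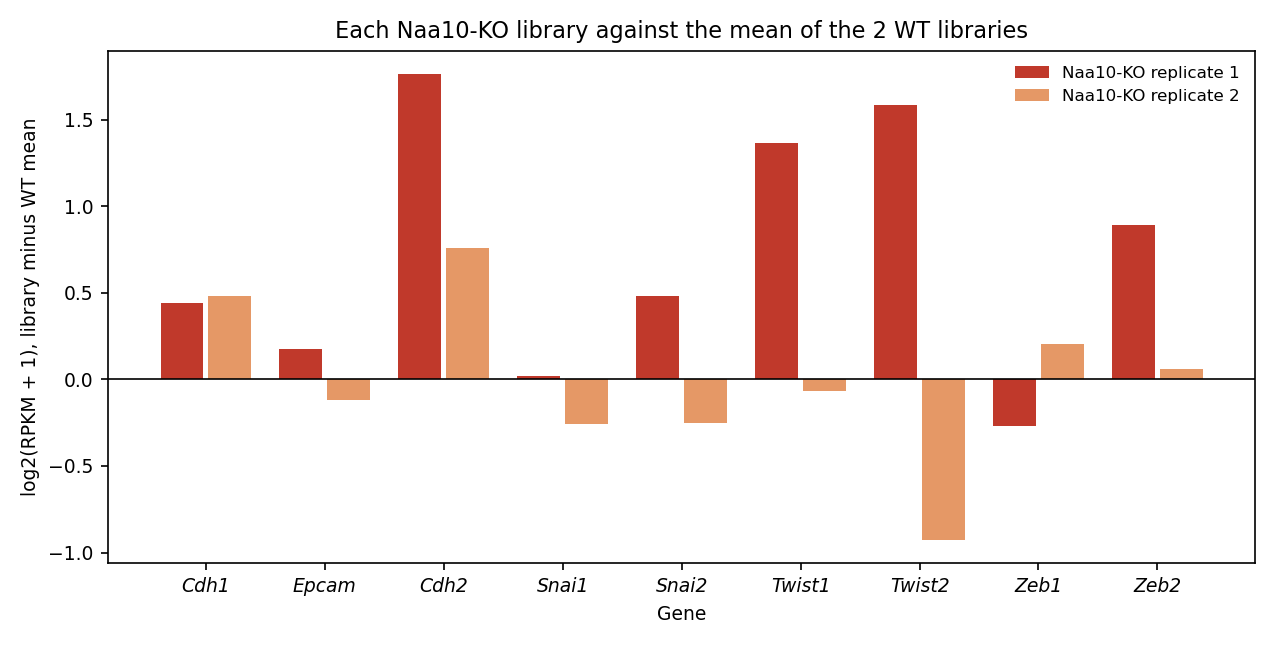
Difference of each Naa10-KO library from the mean of the 2 WT libraries on log2(RPKM + 1), 1 bar per library and gene. Cdh1 differed by 0.44 and 0.48 and Cdh2 by 1.76 and 0.76 in Naa10-KO replicates 1 and 2, while Twist2 differed by 1.58 and -0.92.

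Annotated neighbours limit some of these rows. In GENCODE M21, Cdh1, Epcam, Snai1, Snai2 and Twist1 overlap no other gene. Cdh2, Twist2, Zeb1 and Zeb2 each overlap a gene on the opposite strand, and the labels name no strand-specific protocol, so reads of these partners cannot be told apart. The row of Zeb2 was the one that the tables joined with another symbol.

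Around the members, 15 lists of related and marker genes were read from the same fit, and 0 of their 183 distinct tested rows passed the limma threshold, with 34 at an unadjusted p under 0.05. That is 18.6%, below the 22.1% of all tested rows. Of all tested rows, 42.7% were higher in Naa10-KO. Proteins that tie cadherins to actin lay on both sides of WT. Of 10 tested rows, 5 were higher and 5 lower, with 0 at an unadjusted p under 0.05 and a median log2 difference of 0.05. Ctnnb1, which encodes beta-catenin, had 197 and 173 RPKM in Naa10-KO, against 201 and 204 RPKM in WT (limma adjusted p = 0.436; picked out with its values known). Ctnnd1, which encodes p120-catenin, the protein that holds cadherins at the membrane, had 64.1 and 48.5 RPKM in Naa10-KO, against 42.1 and 43.1 RPKM in WT (adjusted p = 0.262). Magi1, a scaffold of cell junctions, had 10.96 and 8.17 RPKM in Naa10-KO, against 6.96 and 7.12 RPKM in WT (adjusted p = 0.281). Both lay above WT in each Naa10-KO library, further in replicate 1. Vcl, which encodes vinculin, an actin-binding protein of junctions, had 85.4 and 47.7 RPKM in Naa10-KO, against 43.8 and 44.6 RPKM in WT (adjusted p = 0.378, picked out with its values known). It was the 1 row of the 10 above WT by more than 1.5-fold in replicate 1, where 7.51% of all tested rows were.

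Other cadherins did not move together. Of 7 rows found, 4 were tested, 2 higher and 2 lower, with a median of 0.10. Cdh24 had 2.48 and 2.07 RPKM in Naa10-KO, against 5.08 and 4.43 RPKM in WT (log2 difference -0.81, limma adjusted p = 0.114), below WT in both. Cdh3, which encodes P-cadherin, had 12.9 and 20.5 RPKM in Naa10-KO, against 13.9 and 14.3 RPKM in WT (adjusted p = 0.643). Cdh11, a cadherin of mesenchymal cells, had 14.7 and 2.27 RPKM in Naa10-KO, against 4.14 and 4.62 RPKM in WT (adjusted p = 0.776), so that it lay above WT in replicate 1 and below it in replicate 2, as Twist2 did.

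Epithelial junction and keratin genes were mostly on the same side of WT as Cdh1. Of 28 tested rows, 19 were higher and 9 lower in Naa10-KO, with 0 past the threshold, 9 (32.1%, against 22.1% of all tested rows) at an unadjusted p under 0.05 and a median log2 difference of 0.27, against -0.06 over all tested rows. By library, the median stood at 0.18 and 0.28 in Naa10-KO replicates 1 and 2. That side of WT was not particular to epithelial genes. The share of rows higher in Naa10-KO was 67.9% here, 67.8% over all lists together and 78.6% on the mesenchymal list, against 42.7% of all tested rows. Krt18, a keratin of simple epithelia, had 29.0 and 21.8 RPKM in Naa10-KO, against 13.4 and 10.3 RPKM in WT (log2 difference 1.03, limma adjusted p = 0.129). Rab25, a small GTPase of epithelial recycling endosomes, had 4.85 and 5.80 RPKM in Naa10-KO, against 3.17 and 2.95 RPKM in WT (adjusted p = 0.136). St14, the membrane protease matriptase, had 15.0 and 14.1 RPKM in Naa10-KO, against 10.7 and 10.0 RPKM in WT (adjusted p = 0.137). These 3 rows lay above both WT libraries in each Naa10-KO library.

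Regulators of the epithelial state were on that side too, in 8 of 9 tested rows, with 0 past the threshold, 2 (22.2%, against 22.1% of all tested rows) at an unadjusted p under 0.05 and a median of 0.22. By library the median was 0.07 in replicate 1 and 0.33 in replicate 2. Elf3 was 0.694 and 1.91 times and Klf4 0.594 and 1.01 times the WT mean in the Naa10-KO libraries (both picked out with their values known), so replicate 1 lay below WT for these. Esrp1, which drives epithelial splicing, had 16.1 and 16.8 RPKM in Naa10-KO, against 9.23 and 9.72 RPKM in WT (log2 difference 0.74, limma adjusted p = 0.0878). Klf5 had 369 and 493 RPKM in Naa10-KO, against 320 and 267 RPKM in WT (adjusted p = 0.212). Grhl2, a transcription factor of epithelia, had 6.15 and 3.43 RPKM in Naa10-KO, against 3.12 and 2.87 RPKM in WT (adjusted p = 0.355).

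Mesenchymal genes parted the 2 Naa10-KO libraries. Of 28 tested rows, 19 were above both WT libraries by more than 1.5-fold in replicate 1, where 7.51% of all tested rows were. In replicate 2, 2 were above (3.52% of all tested rows) and 4 below (5.11%). The list's median was 1.19 in replicate 1 and -0.11 in replicate 2. The list was chosen with earlier results of these data known, so its counts do not test the difference between the libraries. As a group difference 22 rows were higher and 6 lower in Naa10-KO, with a median log2 difference of 0.59. Of these rows 0 passed, with 2 (7.14%, against 22.1% of all tested rows) at an unadjusted p under 0.05. Of the rows furthest above WT in replicate 1, Tagln, an actin-binding protein of smooth muscle, had 192 and 19.6 RPKM in Naa10-KO, against 19.7 and 20.2 RPKM in WT (limma adjusted p = 0.459). Cd44, a hyaluronan receptor, had 46.2 and 4.05 RPKM in Naa10-KO, against 4.20 and 4.91 RPKM in WT (adjusted p = 0.485). Tnc, a matrix protein, had 239 and 13.5 RPKM in Naa10-KO, against 44.4 and 48.3 RPKM in WT (adjusted p = 0.908). These 3 were more than 5-fold above the WT mean in replicate 1, whereas in replicate 2 Tagln was 0.982 times, Cd44 0.890 times and Tnc 0.292 times it. The rows with the smallest p were higher in both libraries. Msn, which encodes the membrane linker moesin, had 89.3 and 63.9 RPKM in Naa10-KO, against 37.7 and 38.9 RPKM in WT (log2 difference 0.96, adjusted p = 0.125), and Fn1, fibronectin, had 254 and 231 RPKM in Naa10-KO, against 188 and 189 RPKM in WT (0.36, adjusted p = 0.136).

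Fibroblast markers separated the libraries in a similar way, but not uniformly. Of 18 tested rows, 10 were above WT by more than 1.5-fold in replicate 1 (7.51% of all tested rows). In replicate 2, 0 were above (3.52%) and 8 below (5.11%), and 0 passed as a group difference or had an unadjusted p under 0.05. The list's median was 0.69 in replicate 1 and -0.39 in replicate 2. This list too was chosen with earlier results of these data known, so its counts are not a test. Prrx1, a homeobox gene of limb and craniofacial mesenchyme that is also on the mesenchymal list, had 9.86 and 1.53 RPKM in Naa10-KO, against 1.72 and 1.98 RPKM in WT. Fbln2, a matrix glycoprotein, had 64.0 and 12.7 RPKM in Naa10-KO, against 16.7 and 17.3 RPKM in WT. Col5a2 was 4.48 times and Loxl1 3.54 times the WT mean in replicate 1, but 0.420 and 0.901 times in replicate 2. Lum, a matrix proteoglycan, had 1.06 and 0.149 RPKM in Naa10-KO, against 1.11 and 1.54 RPKM in WT (limma adjusted p = 0.368), and so was not high in replicate 1. Pcolce had 83.4 and 69.9 RPKM in Naa10-KO, against 66.8 and 69.7 RPKM in WT (adjusted p = 0.451), and the receptor gene Pdgfrb 2.29 and 1.62 RPKM, against 2.57 and 2.30 RPKM in WT (adjusted p = 0.466).

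**Figure D4:**
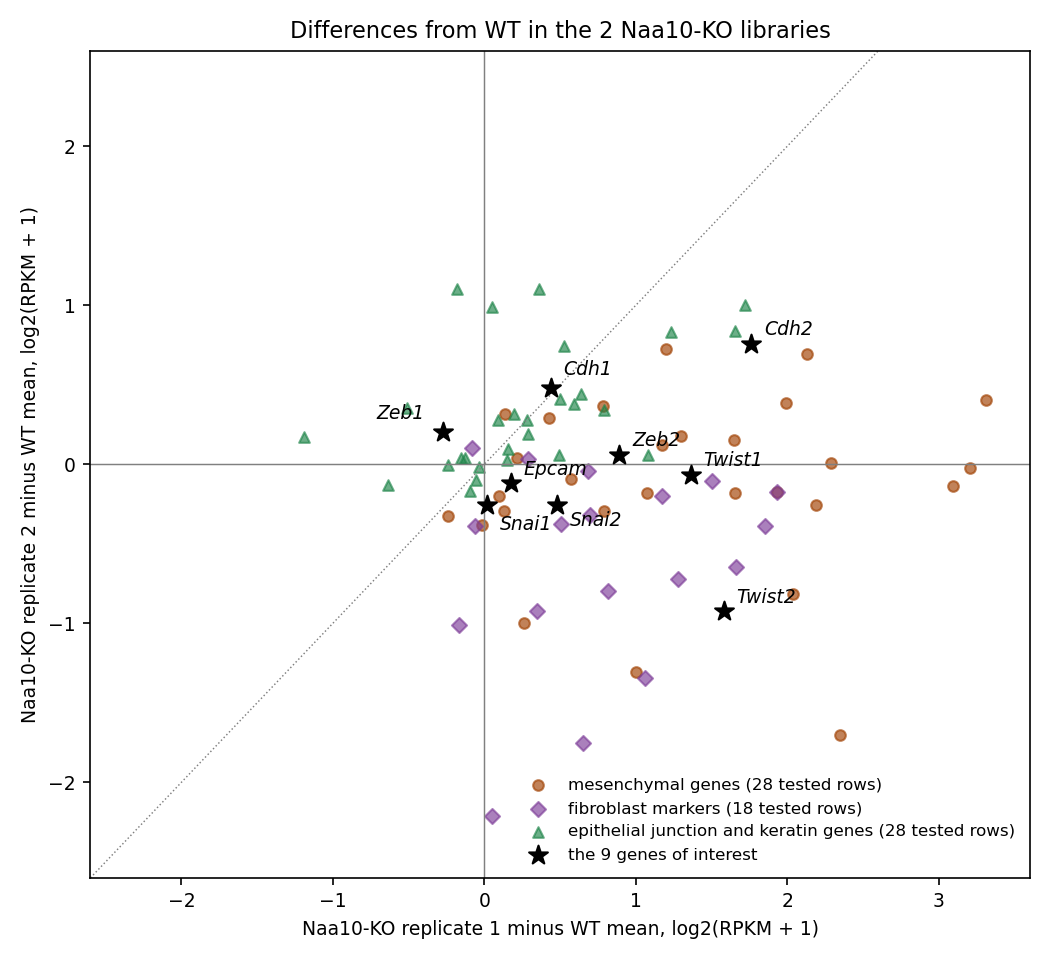
Difference from the WT mean on log2(RPKM + 1) in Naa10-KO replicate 1 (x axis) and Naa10-KO replicate 2 (y axis), for the 9 genes (stars), the tested rows of the mesenchymal list (circles), the fibroblast markers (diamonds) and the epithelial list (triangles). On the dotted line the replicates are equal. Cdh1 lies near that line at 0.44 and 0.48, whereas Twist1 at 1.36 and -0.06 and Twist2 at 1.58 and -0.92 lie among the mesenchymal and fibroblast rows far below it.

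Upstream of the factors, genes of TGF-beta signalling, a strong inducer of the transition, were higher in 14 of 17 tested rows (82.4%, against 42.7% of all tested rows), with 0 past the threshold, 3 (17.6%, against 22.1% of all tested rows) at an unadjusted p under 0.05 and medians of 0.36 in replicate 1 and 0.07 in replicate 2. The ligand gene Tgfb1 had 24.4 and 14.0 RPKM in Naa10-KO, against 9.99 and 9.14 RPKM in WT (log2 difference 0.89, limma adjusted p = 0.201). The receptor gene Tgfbr1 had 6.78 and 7.52 RPKM in Naa10-KO, against 9.44 and 9.42 RPKM in WT (-0.36, adjusted p = 0.184). Tgif1, a repressor of Smad-driven transcription, had 153 and 191 RPKM in Naa10-KO, against 120 and 118 RPKM in WT (0.52, adjusted p = 0.150). Tgfb1 thus lay above WT and Tgfbr1 below it in both Naa10-KO libraries. The other receptor gene, Tgfbr2, had 4.37 and 1.16 RPKM in Naa10-KO, against 0.876 and 0.947 RPKM in WT (0.83, adjusted p = 0.378; picked out with its values known), and lay above WT in both.

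Corepressors and turnover factors of Snail and Zeb proteins had a median of 0.03 over 22 tested rows, 13 higher and 9 lower, with 0 past the threshold and 5 at an unadjusted p under 0.05, a share of 22.7% against 22.1% of all tested rows. Ajuba, a LIM protein that binds Snail, had 105 and 99.8 RPKM in Naa10-KO, against 72.2 and 73.8 RPKM in WT (limma adjusted p = 0.0974). Fbxl14, which marks Snail for degradation, had 12.7 and 15.4 RPKM in Naa10-KO, against 8.12 and 8.03 RPKM in WT (adjusted p = 0.117). Ctdsp1, a small phosphatase that acts on Snail, had 22.3 and 17.4 RPKM in Naa10-KO, against 11.4 and 11.5 RPKM in WT (adjusted p = 0.130). All 3 were above both WT libraries in each Naa10-KO library. Hdac2 and Rcor1, also at an unadjusted p under 0.05, lay below both WT libraries in each (both picked out with their values known). Hdac2 had 47.1 and 49.2 RPKM in Naa10-KO, against 58.8 and 60.4 RPKM in WT. Rcor1 had 10.2 and 10.7 RPKM in Naa10-KO, against 13.3 and 12.7 RPKM in WT.

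Twist proteins pair with E proteins and are held back by Id proteins, which tie up E proteins. Of 8 tested rows of these families and their Hand relatives, 6 were higher and 2 lower, with 0 past the threshold, 4 of the 8 (against 22.1% of all tested rows) at an unadjusted p under 0.05 and a median of 0.47. Id1 had 86.3 and 96.2 RPKM in Naa10-KO, against 50.7 and 44.4 RPKM in WT (log2 difference 0.93, limma adjusted p = 0.0833). Id2 had 71.3 and 56.2 RPKM in Naa10-KO, against 43.8 RPKM in each WT library (adjusted p = 0.160). Id3 had 56.8 and 46.8 RPKM in Naa10-KO, against 36.1 and 38.0 RPKM in WT (adjusted p = 0.158). Unlike the Twist genes, these lay above WT in both Naa10-KO libraries.

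Partners and proteases of EpCAM had a median of 0.14 over 10 tested rows, 6 higher and 4 lower, with 0 past the threshold or at an unadjusted p under 0.05. Among subunits of gamma-secretase, which cuts EpCAM within the membrane, Aph1a was 1.15 and 1.18 times the WT mean in the Naa10-KO libraries, and Ncstn 1.56 and 1.12 times (limma adjusted p = 0.302 for Ncstn). Bace1 was listed at 0 in Naa10-KO replicate 1, which in these tables can be a failed estimate.

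**Figure D5:**
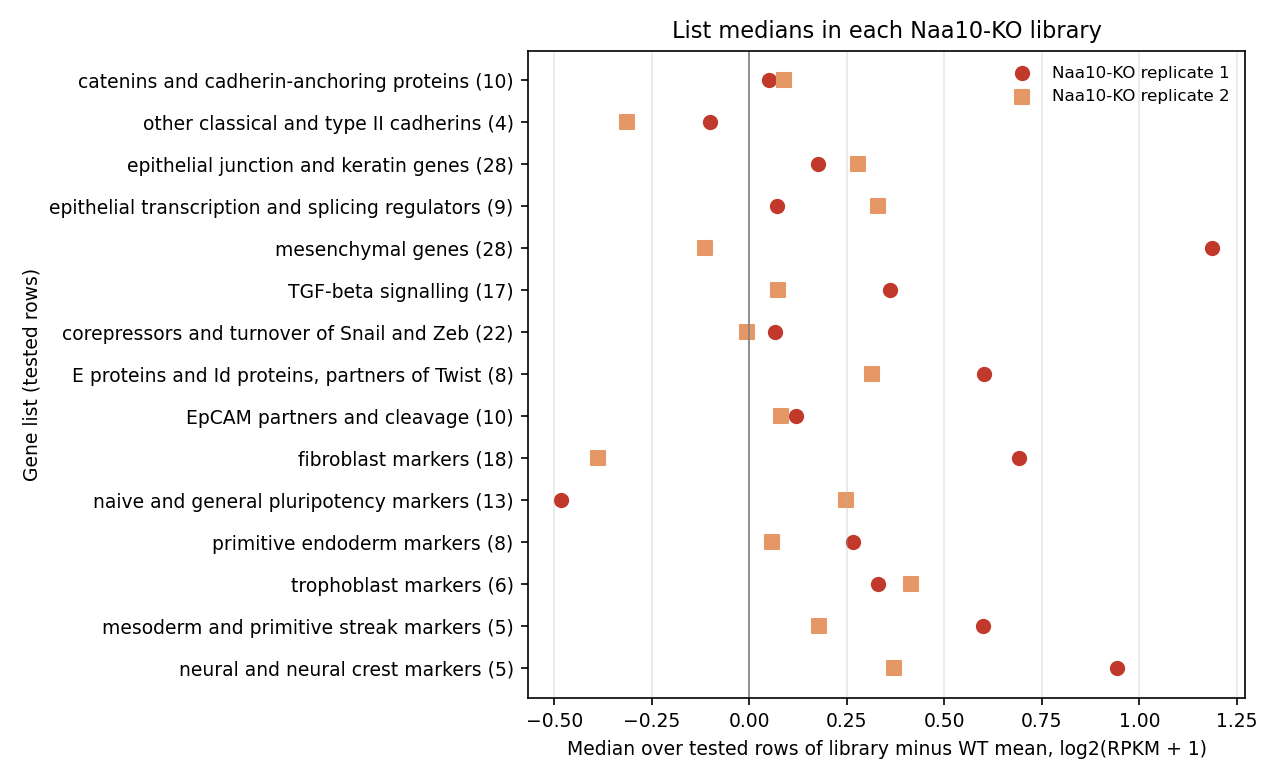
Median over the tested rows of each list (number of rows in brackets) of the difference from the WT mean on log2(RPKM + 1), for Naa10-KO replicate 1 (circles) and replicate 2 (squares). The mesenchymal list stands at 1.19 in replicate 1 and -0.11 in replicate 2, the fibroblast list at 0.69 and -0.39, and the epithelial junction list at 0.18 and 0.28.

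Markers of other cells that the cultures could hold were read for the same libraries. Pluripotency markers had medians of -0.48 in replicate 1 and 0.25 in replicate 2 over 13 tested rows, with 0 past the threshold and 4 (30.8%, against 22.1% of all tested rows) at an unadjusted p under 0.05. Their RPKM summed to 4584 and 5779 in Naa10-KO, against 5438 and 5519 in WT. Of the 13 rows, 5 were higher and 8 lower in Naa10-KO. In replicate 1, 4 were below both WT libraries by more than 1.5-fold (10.4% of all tested rows) and 1 was above (7.51%). In replicate 2, 0 were below (5.11%) and 1 was above (3.52%). Utf1 had 453 and 445 RPKM in Naa10-KO, against 299.9 and 295 RPKM in WT (limma adjusted p = 0.0646). The joined row of Dppa5a and Ooep was 0.672 and 0.798 times the WT mean (adjusted p = 0.151), and Tdgf1 1.18 and 1.28 times (adjusted p = 0.152). Primitive endoderm markers summed to 263 and 227 RPKM in Naa10-KO, against 227 and 211 RPKM in WT, with 0 of 8 tested rows past the threshold or at an unadjusted p under 0.05. Of these sums, Sparc, which is also on the mesenchymal list, held 155 and 137 RPKM in Naa10-KO and 137 and 129 RPKM in WT. Among the factors of this list, Sox17 and Gata6 were below 1 RPKM in every library. Gata4 reached 1.40 RPKM in Naa10-KO replicate 2 and 1.05 RPKM in WT replicate 1. These 4 rows were picked out with their values known. Sox7 had 1.73 and 3.83 RPKM in Naa10-KO, against 1.26 and 1.14 RPKM in WT (adjusted p = 0.277), and Lama1 0.671 and 0.897 times the WT mean (adjusted p = 0.317).

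Trophoblast markers summed to 35.4 and 45.4 RPKM in Naa10-KO, against 28.5 and 29.2 RPKM in WT, with 0 of 6 tested rows past the threshold. At an unadjusted p under 0.05 there was 1 (16.7%, against 22.1% of all tested rows), Gata3. It had 1.83 and 1.26 RPKM in Naa10-KO and 0.571 and 0.687 RPKM in WT (limma adjusted p = 0.156). Of the trophoblast sums, Tfap2c held 15.5 and 28.0 RPKM in Naa10-KO and 14.7 and 15.0 RPKM in WT. Of the 6 tested rows, 4 were higher and 2 lower. The lower rows were Ascl2, at 0.546 and 0.801 times the WT mean, and Plet1, at 0.592 and 1.45 times. Tfap2c, Ascl2 and Plet1 were picked out with their values known. Mesoderm and primitive streak markers summed to 22.8 and 14.1 RPKM in Naa10-KO, against 10.4 and 9.31 RPKM in WT. Of 5 tested rows, 3 were higher and 2 lower, and 0 passed. At an unadjusted p under 0.05 there was 1 (20.0%, against 22.1% of all tested rows). That row was T, the Brachyury gene of the primitive streak, where a cadherin switch takes place in the embryo. T had 9.19 and 4.53 RPKM in Naa10-KO, against 1.18 and 1.04 RPKM in WT (log2 difference 1.83, limma adjusted p = 0.118), and like Cdh2 was above WT in both libraries and higher in replicate 1. Eomes, on both lists and picked out with its values known, had 7.62 and 3.92 RPKM in Naa10-KO, against 3.32 and 3.38 RPKM in WT (adjusted p = 0.343). Hand1, a mesoderm and trophoblast factor on both lists, had 1.97 and 1.52 RPKM in Naa10-KO, against 1.21 and 0.735 RPKM in WT (adjusted p = 0.246). The 2 lower rows of the mesoderm list were Foxf1 and Mesp2, both picked out with their values known. Foxf1 was 0.86 and 0.28 times and Mesp2 0.36 and 0.91 times the WT mean in Naa10-KO replicates 1 and 2. Neural and neural crest markers summed to 76.4 and 70.3 RPKM in Naa10-KO, against 36.3 and 38.4 RPKM in WT, with 0 of 5 tested rows past the threshold and 2 at an unadjusted p under 0.05. Tubb3 had 45.3 and 51.3 RPKM in Naa10-KO, against 23.3 and 24.4 RPKM in WT (adjusted p = 0.0626), and Foxd3 10.9 and 11.7 RPKM, against 4.71 and 5.06 RPKM in WT (adjusted p = 0.0654). Nes was 2.63 and 0.731 times, Sox1 1.73 and 0.634 times and Pax6 2.90 and 1.60 times the WT mean in Naa10-KO replicates 1 and 2. Nes, Sox1 and Pax6 were picked out with their values known. The part of any such cells in the levels of the 9 genes was not tested.

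The rows most like the 3 adhesion genes were found by distance over the 4 libraries, with log2(RPKM + 1) values centred on the WT mean. Nearest to Cdh2 were Akr1c18, Fjx1 and Sox9, at distances of 0.05, 0.06 and 0.15. Akr1c18 had 3.38 and 1.13 RPKM in Naa10-KO, against 0.263 and 0.297 RPKM in WT. At such low levels the 1 added to each value outweighs the WT values, so the closeness of Akr1c18 depends on it. Fjx1 had 12.3 and 5.27 RPKM in Naa10-KO, against 2.76 and 2.97 RPKM in WT, and Sox9 6.38 and 2.71 RPKM, against 1.13 and 1.04 RPKM in WT. Nearest to Cdh1 were Larp1, C130074G19Rik and Prickle1, all at 0.03 to 0.04, and nearest to Epcam were Suv39h2, Usp47 and Rbfox2, all at 0.01 to 0.02. The patterns of Cdh1 and Epcam were common, with 45 and 91 rows within 0.05 more than the last of these, while that of Cdh2 had 4. These counts include the named rows, and the distance allowed differed between the genes.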

How the data were processed

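The deposited values are RPKM per gene row, 1 table per library, scaled by the authors to transcript length and mapped reads, per the file headers. The submitters' processing notes name Cufflinks, bedtools and mm9, with no versions. An aligner and an annotation were not stated. Fragment counts were not used; relative depth came from the lowest values of microRNA hairpin rows of equal length (up to 75 nt), as the most common ratio in 10 of 14, 9 of 13 and 4 of 10 length classes for WT replicate 2, Naa10-KO replicate 1 and Naa10-KO replicate 2. In the last, as many classes had exactly 2 times that ratio.

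The test was two-sided, by limma 3.58.1 in R 4.3.3, and let the variance follow the mean. It used log2(RPKM + 1) of 11912 rows, those where 2 or more libraries reached 1 RPKM. Benjamini-Hochberg adjustment ran over all of them, with 0.05 as threshold. Fold changes on this scale understate low genes. The fit was tested on simulated data with the same spread in all libraries. That test does not cover the unequal spread of the Naa10-KO and WT pairs here. Tables were handled in Python 3.11.15. The genes and lists were chosen with earlier results of these data known. Of each list, the text names the 2 to 3 tested rows with the smallest adjusted p, as none passed, and for the mesenchymal and fibroblast lists also the 4 with the highest log2 difference in Naa10-KO replicate 1. Of the genes this rule picks, 2 are not reported here.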

Additional observations from a re-analysis of the deposited data

How the results depend on the processing

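None of the 7 tested genes passed under any of the 10 settings that kept all 4 libraries, where the lowest adjusted p was 0.0851 (Cdh1). Zeb1 had a log2 difference of 0.031 with values centred on the median of each library and 0.019 with TMM scaling, against -0.03. Fits that leave out 1 library assume that the one left in its group varies like the other pair; 10 of the results for these genes passed in them, among them Twist2 in both directions. The log2 difference then ran from -0.12 to 0.17 for Epcam, -0.26 to 0.017 for Snai1, -0.064 to 1.36 for Twist1, -0.92 to 1.58 for Twist2 and -0.27 to 0.20 for Zeb1. The 91 rows past the threshold became 40 with no filter on low values, 0 with rows at 0 and small RNA rows left out (limma, with 2626 at an unadjusted p under 0.05), and 12 to 7081 with a library left out. With the replicate number as a block the count was 44; the labels do not say that a number marks a shared batch, and same-numbered libraries deviated with a correlation of -0.22 across rows. A crossed replicate block, chosen after seeing the data, gave 133, and the 7 tested genes were not read from that fit. With 2-fold in place of 1.5-fold, rows apart from both WT libraries numbered 359 above and 300 below in Naa10-KO replicate 1, and 82 above and 218 below in replicate 2. Of the 9 genes, 3 were then above in replicate 1 and 0 above or below in replicate 2. How depth limits the single genes was not measured.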
